A study of Mus musculus with 9 samples.

Results

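The 40 genes described here encode the core autophagy machinery and the main mitophagy factors of the mouse. They were chosen by gene symbol from a table of gene-body read counts for 24391 genes, and all 40 symbols were found there. The choice was made with earlier results of these data known. The same members were followed at 64 counted elements on their start sites and 70 counted elements inside their genes, out of 42114 elements in all. The libraries are PRO-seq, a nuclear run-on method that counts RNA still attached to transcribing polymerase, so the values are nascent transcription and not stored messenger RNA. Mouse erythroid progenitor cells were measured in 4 conditions and 9 libraries. G1E-ER4 cells express GATA1-ER, a fusion of GATA1 with the hormone-binding domain of the estrogen receptor, which estradiol activates, and were taken after 24 h (n = 2) and 13 h (n = 2) of estradiol at 100 nM. The same line without estradiol is the 0 h group (n = 3), and the last group is untreated G1E, the parent line, which lacks a working GATA1 (n = 2). Every group grew in medium with epoetin and with conditioned medium from a CHO cell line that makes kit ligand. The labels do not say whether the libraries of a group came from separate cultures, so p-values measure only the spread between these libraries.

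Autophagy wraps cytoplasm in a double membrane and delivers it to the lysosome. A kinase complex built on Ulk1 starts the process, a lipid kinase complex marks the forming membrane, lipid-transfer proteins and Atg9a feed it, and a ubiquitin-like conjugation system attaches proteins of the ATG8 family to it, where receptors dock their cargo. Mitophagy is the same route applied to mitochondria. In maturing mouse red cells it clears mitochondria as reticulocytes mature and depends on Bnip3l (NIX), and GATA1 and Foxo3 have been described as activators of autophagy genes in erythroid cells.

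The libraries held between 37830789 and 139945759 gene-body reads and between 15394427 and 59952454 element reads. The summed level of 12 erythroid genes was 809 to 906 CPM (reads scaled to the size of each library) at 0 h, 1730 to 1888 CPM at 13 h, 3290 to 4160 CPM at 24 h and 1120 to 1469 CPM in G1E, and 10 of the 12 rose at 24 h. The 8 mast cell genes summed to 37.0 to 85.1 CPM at 0 h, 2.18 to 2.32 CPM at 13 h, 0.818 to 0.991 CPM at 24 h and 30.5 to 54.5 CPM in G1E, with Mcpt4 and Mcpt8 at 0 throughout and all 4 tested genes lower at 24 h. The 8 megakaryocyte genes summed to 34.3 to 49.3 CPM at 0 h, 114 to 122 CPM at 13 h, 71.7 to 111 CPM at 24 h and 57.8 to 63.5 CPM in G1E. Granulocyte and macrophage markers stayed at or below 1.22 CPM in sum, and lymphocyte markers at or below 4.32 CPM. These are bulk samples, in which fewer cells of a type and less nascent RNA per cell cannot be told apart, and the part of the marker changes in the results below was not tested. Gata1 itself was read in all groups, at 257, 188 and 198 CPM at 0 h, 280 and 214 CPM at 13 h, 301 and 301 CPM at 24 h and 214 and 164 CPM in G1E; gene-body reads of Gata1 do not tell the fusion from the disrupted gene.

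The annotated start regions of members with the greatest increases are shown first, as sequence only. Promoter windows of RefSeq (GRCm38.p6), 250 bases up to the annotated start, were given for 32 of the 40 members. The 5 below belong to members that have a single window and lie among the 5 largest increases at 24 h or at 13 h. Capitals mark any match to 4 words, searched on both strands. AGATAA is a word that GATA factors bind, and so is TGATAA. The E-box word bound by MiT/TFE factors is CACGTG, and the forkhead word is GTAAACA. Overlapping matches were allowed, and positions are counted backwards from the start. The windows are read on the strand of the gene. They lie at chr11:109611390-109611639 (minus strand) for Wipi1, chr1:75192011-75192260 (minus) for Atg9a, chr7:138909507-138909756 (minus) for Bnip3, chr4:138326297-138326546 (minus) for Pink1 and chr9:21265035-21265284 (plus) for Atg4d.
Wipi1: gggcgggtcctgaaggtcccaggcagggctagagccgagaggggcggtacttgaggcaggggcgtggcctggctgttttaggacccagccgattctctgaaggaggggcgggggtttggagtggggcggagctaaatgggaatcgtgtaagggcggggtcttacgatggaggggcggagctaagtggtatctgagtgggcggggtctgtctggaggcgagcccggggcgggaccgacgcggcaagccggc
Atg9a: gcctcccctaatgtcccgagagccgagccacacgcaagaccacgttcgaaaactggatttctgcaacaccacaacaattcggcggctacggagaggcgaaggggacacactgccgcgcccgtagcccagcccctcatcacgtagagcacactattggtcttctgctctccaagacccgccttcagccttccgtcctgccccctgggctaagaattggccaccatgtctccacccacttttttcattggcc
Bnip3: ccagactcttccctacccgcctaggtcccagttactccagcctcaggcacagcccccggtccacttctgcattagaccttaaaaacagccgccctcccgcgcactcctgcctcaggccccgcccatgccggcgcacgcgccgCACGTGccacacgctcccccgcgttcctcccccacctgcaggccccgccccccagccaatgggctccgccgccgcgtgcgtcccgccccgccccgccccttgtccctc
Pink1: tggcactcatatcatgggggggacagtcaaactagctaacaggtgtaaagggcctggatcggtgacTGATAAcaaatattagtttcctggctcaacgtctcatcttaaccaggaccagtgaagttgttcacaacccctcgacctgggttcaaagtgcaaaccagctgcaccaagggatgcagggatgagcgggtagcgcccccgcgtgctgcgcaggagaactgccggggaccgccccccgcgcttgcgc
Atg4d: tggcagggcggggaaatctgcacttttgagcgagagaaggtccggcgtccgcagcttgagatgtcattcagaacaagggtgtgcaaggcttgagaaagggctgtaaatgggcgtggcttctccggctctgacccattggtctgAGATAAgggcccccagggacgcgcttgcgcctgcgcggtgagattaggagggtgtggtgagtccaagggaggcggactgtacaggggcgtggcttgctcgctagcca
Bnip3 holds CACGTG at base -108, Pink1 holds TGATAA at base -184 and Atg4d holds AGATAA at base -107, while the Wipi1 and Atg9a windows hold none of the 4 words. The windows are rich in G and C, from 57.2% in Pink1 to 72.4% in Bnip3. Of the 32 members with a window, 2 held AGATAA (Atg4a and Atg4d), 2 held TGATAA (Atg4a and Pink1), 4 held CACGTG (Atg3, Atg5, Atg7 and Bnip3) and 0 held GTAAACA. Among all 32851 windows of the same length the shares were 9.99%, 7.94%, 6.02% and 3.17% in that order. These shares are per window, whereas the member counts are per gene, over 35 windows. A match is only a run of letters, and the build differs from that of the read counts (mm9), so no window was placed on a counted element.

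Nascent transcription over most of these genes was higher after estradiol. At 24 h against 0 h, 31 of the 40 gene bodies rose and 0 fell at an adjusted p below 0.05 (edgeR quasi-likelihood test over 13825 genes, Benjamini-Hochberg adjustment), where 29% of all tested genes rose and 30.7% fell. The count of falls was also 0 at an unadjusted p under 0.05 and by DESeq2. Because the list was chosen with earlier results of these data known, its distance from all genes is a description only. At 13 h against 0 h, 23 rose and 0 fell (1 fell at an unadjusted p under 0.05, and DESeq2 called 1, Ulk2), beside 20.1% and 20.9% of all genes. With the replicate number as a block the 13 h count was 16, and the labels do not say whether these numbers pair the libraries. The median log2 change of the 40 was 0.89 at 24 h and 0.60 at 13 h, where the medians over all tested genes were -0.07 and -0.02. The 13 h and 24 h comparisons share their 0 h libraries. Together the 40 genes took 0.360%, 0.354% and 0.333% of gene-body reads at 0 h, 0.463% and 0.462% at 13 h, 0.528% and 0.555% at 24 h and 0.344% and 0.336% in G1E. Scaling by total reads instead of TMM, which trims extreme genes, lowered the median of all genes to -0.45 at 24 h and -0.12 at 13 h, and members then counted 21 higher and 2 lower (Atg16l1 and Fundc1) at 24 h and 20 higher and 2 lower (Ulk2 and Atg16l1) at 13 h. Over all genes that scaling gave 2614 higher and 5863 lower at 24 h in place of 4014 and 4246, 2356 and 3357 at 13 h in place of 2782 and 2888, and 641 and 3079 between 24 h and 13 h in place of 1617 and 1732. The 10 increases at 24 h that it ended were those of Ulk1, Atg13, Becn1, Pik3c3, Atg3, Atg4a, Atg5, Gabarapl1, Sqstm1 and Park2, and at 13 h it ended those of Ambra1, Sqstm1 and Stx17. At 13 h the increases of Ambra1, Atg12, Atg4a and Stx17 were each lost when 13 h library 1 was left out, and also without 0 h library 2 (Atg12 and Stx17), 0 h library 3 (Atg4a) or any 0 h library (Ambra1), with edgeR adjusted p of 0.0523 to 0.186 in these omissions. Library titles open with a number whose meaning is not stated. Taking libraries of adjoining numbers only, all 31 increases at 24 h had the same direction in both 24 h libraries against 0 h library 3, and all 23 at 13 h had it in each of 2 pairs of 13 h and 0 h libraries. All 31 and all 23 had groups that do not overlap in CPM, so any pairing must give the same direction. This agreement is therefore no check on what the numbers stand for. The called increases of the wider list below were all separate too (42 at 24 h and 34 at 13 h). The share over all genes was not counted, so the separation is not read as a trait of the members.

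**Figure D1:**
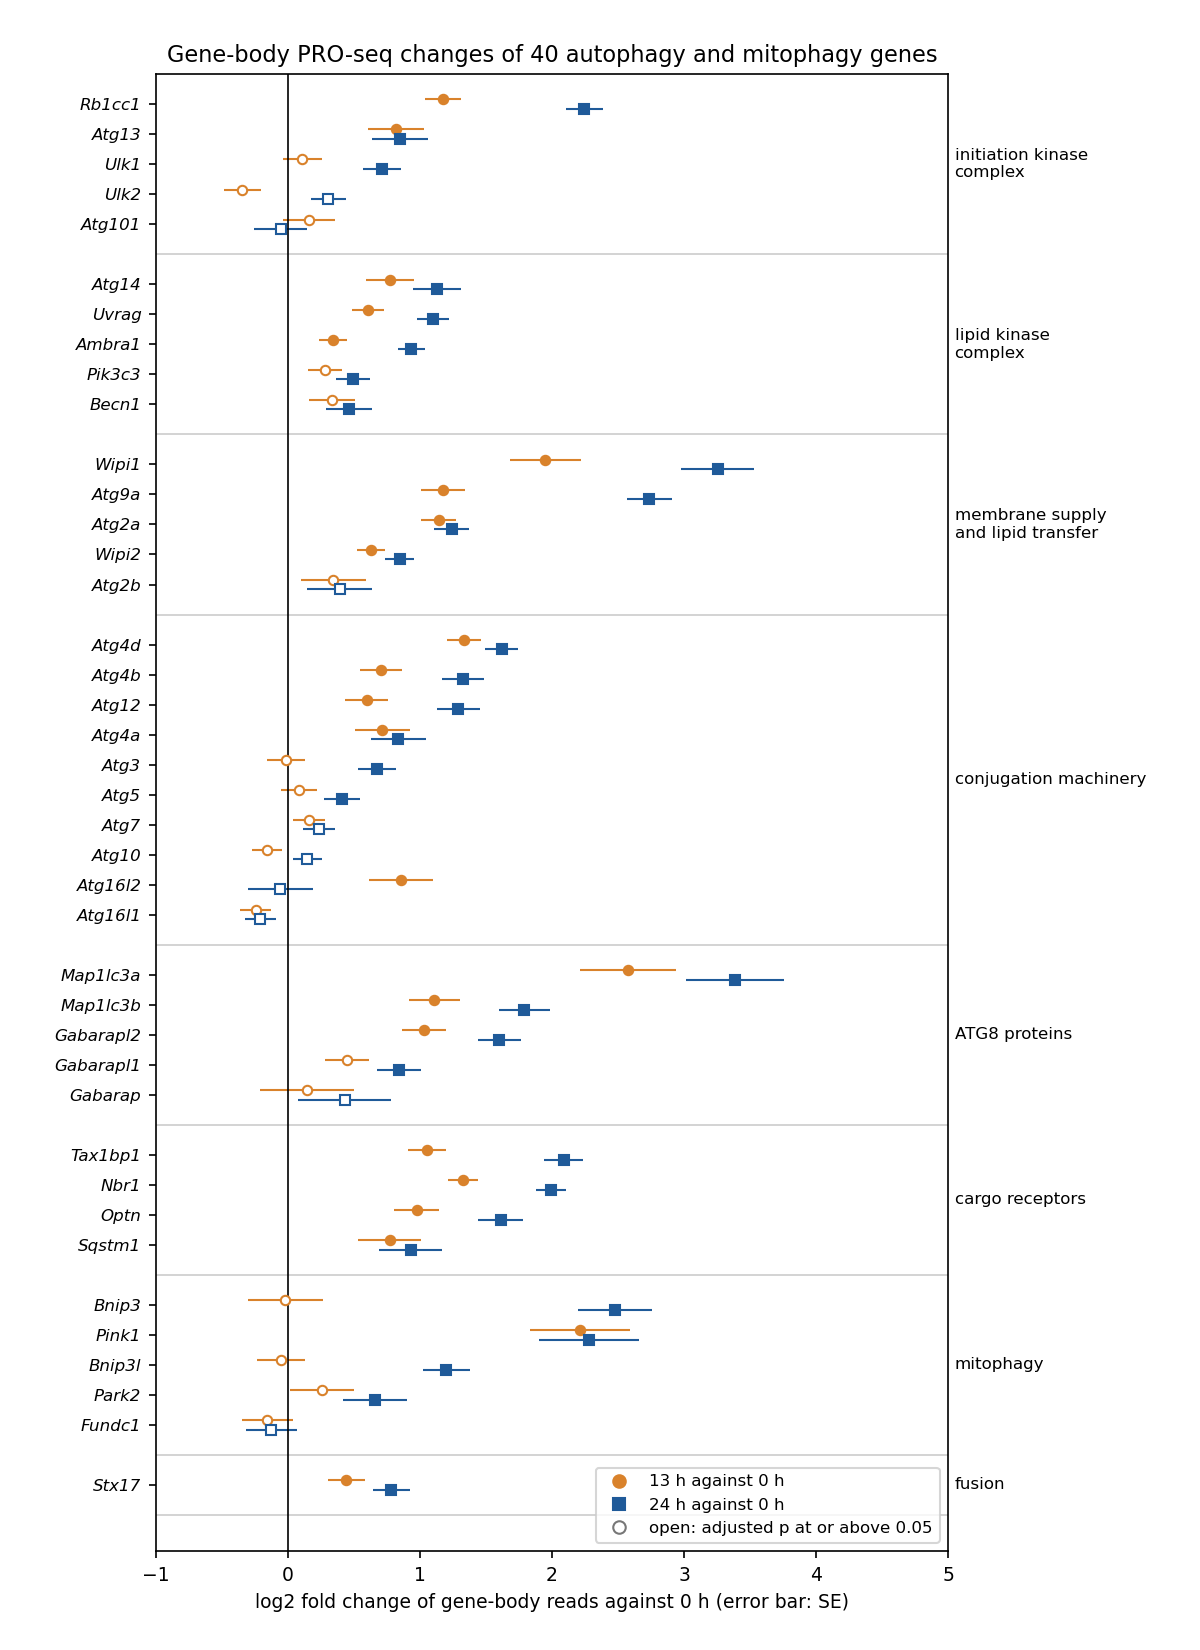
Log2 fold change of gene-body counts of the 40 members, grouped by role, at 13 h and at 24 h against 0 h in G1E-ER4 cells; points are fitted changes, bars are standard errors, and open points did not pass an adjusted p of 0.05. The 24 h points reach 3.39 in Map1lc3a and 3.25 in Wipi1, and no filled point lies below 0.

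The initiating kinase complex was split in its timing. Of its 5 genes 3 rose at 24 h: the scaffold Rb1cc1 (FIP200), Atg13, which links scaffold and kinase, and the kinase Ulk1. Rb1cc1 read 134, 114 and 112 CPM at 0 h, 292 and 248 CPM at 13 h, 511 and 626 CPM at 24 h and 96.2 and 86.5 CPM in G1E. No library of one time overlapped another time, and the log2 change was 2.25 ± 0.14 at 24 h and 1.17 at 13 h (edgeR adjusted p 1.2e-06 and 0.00015). Ulk1 read 46.6, 50.2 and 42.2 CPM at 0 h, 49.0 and 50.8 CPM at 13 h, 72.4 and 79.3 CPM at 24 h and 71.8 and 57.1 CPM in G1E. Its 13 h libraries lay among and just above those of 0 h (log2 change 0.11 ± 0.15, adjusted p 0.59), and both 24 h libraries stood above them (0.71 ± 0.15, adjusted p 0.0018). Ulk2, the paralogous kinase, showed another order, with 76.2, 80.0 and 78.4 CPM at 0 h, 60.4 and 62.7 CPM at 13 h, 103 and 90.1 CPM at 24 h and 39.1 and 31.6 CPM in G1E. Neither time passed the test against 0 h for Ulk2 (adjusted p 0.075 at 24 h and 0.07 at 13 h). Atg13 rose at both times, by 0.85 at 24 h and 0.82 at 13 h, although its 13 h call was lost without 13 h library 1 (0.57, adjusted p 0.105). Atg101, which steadies Atg13, did not pass the test at either time (-0.06 at 24 h and 0.16 at 13 h).

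All 5 genes of the lipid kinase complex rose at 24 h and 3 rose at 13 h. Atg14, the subunit that brings the kinase to the forming autophagosome, read 55.5 and 76.6 CPM at 24 h against 30.5, 31.2 and 28.8 CPM at 0 h, a log2 change of 1.13 ± 0.18 (edgeR adjusted p 0.00037). Uvrag, the subunit of the later endosomal complex, changed by 1.10 ± 0.12 and Ambra1, a Beclin partner, by 0.93 ± 0.11. Pik3c3, the lipid kinase itself, changed by 0.49 (137 and 152 CPM at 24 h, 97.2, 110 and 101 CPM at 0 h) and Becn1 (Beclin 1) by 0.46. The Becn1 call was lost when any of 4 libraries was left out, at 0.39 to 0.50 with adjusted p 0.101 to 0.166.

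The membrane supply genes held some of the greatest increases. Wipi1, which binds the lipid mark on the forming membrane, read 19.3, 11.4 and 14.1 CPM at 0 h, 65.7 and 49.9 CPM at 13 h, 102 and 183 CPM at 24 h and 15.2 and 16.5 CPM in G1E. The times did not overlap, and the log2 change was 3.25 ± 0.28 at 24 h and 1.95 ± 0.27 at 13 h (edgeR adjusted p 7.1e-06 and 0.00039). Atg9a, the membrane protein that rides on the vesicles feeding the autophagosome, read 19.7, 21.5 and 20.7 CPM at 0 h, 40.8 and 52.3 CPM at 13 h, 132 and 143 CPM at 24 h and 25.2 and 18.5 CPM in G1E. Its steps were 1.17 ± 0.17 at 13 h against 0 h and 1.56 ± 0.19 at 24 h against 13 h. Atg2a, a lipid-transfer protein, rose by 1.24 at 24 h and 1.14 at 13 h, with 114 and 114 CPM at 24 h and 111 and 102 CPM at 13 h. Its paralog Atg2b did not pass at either time, and its libraries overlapped throughout (574 and 356 CPM at 24 h, 303, 383 and 377 CPM at 0 h). Wipi2, the family member that recruits the conjugation machinery, rose by 0.85 at 24 h and 0.63 at 13 h.

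Conjugation genes were mixed. Of 10 genes 6 rose at 24 h and 5, Atg16l2 among them, at 13 h, and the group's median at 24 h was 0.54. The 3 proteases that prime ATG8 proteins, Atg4a, Atg4b and Atg4d, all rose. Atg4d read 39.0, 46.2 and 40.8 CPM at 0 h, 108 and 104 CPM at 13 h and 124 and 134 CPM at 24 h, a log2 change of 1.62 ± 0.13 at 24 h and 1.33 ± 0.13 at 13 h (edgeR adjusted p 3.9e-06 and 4.1e-05). Atg4b rose by 1.33, Atg4a by 0.83 and Atg12, the ubiquitin-like protein joined to Atg5, by 1.29 at 24 h. The E2-like enzyme Atg3 read 79.4 and 74.9 CPM at 24 h against 45.9, 52.9 and 46.2 CPM at 0 h (0.68), while its 13 h value was -0.01. Atg7, the E1-like enzyme, Atg10, the E2-like enzyme for Atg12, and Atg16l1, the scaffold of the Atg12-Atg5 conjugate, did not pass at either time (0.24, 0.15 and -0.21 at 24 h). Atg5 changed by 0.41 at 24 h, a call that was lost without any 1 of its 5 libraries (0.38 to 0.43, adjusted p 0.0551 to 0.0921).

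All genes of the ATG8 family except Gabarap rose at 24 h, as did all 4 cargo receptors. Map1lc3b (LC3B), the member most used to track autophagosomes, read 15.0, 17.1 and 12.6 CPM at 0 h, 26.6 and 37.6 CPM at 13 h, 49.4 and 53.4 CPM at 24 h and 20.3 and 23.2 CPM in G1E. The libraries of each time stood apart, with a log2 change of 1.79 ± 0.19 at 24 h and 1.11 ± 0.19 at 13 h (edgeR adjusted p 3e-05 and 0.0014). Gabarapl2 read 12.2, 15.0 and 13.3 CPM at 0 h, 27.0 and 28.1 CPM at 13 h and 43.6 and 38.3 CPM at 24 h, for 1.60 ± 0.16 at 24 h and 1.03 ± 0.16 at 13 h. Gabarapl1 rose at 24 h (0.84 ± 0.17, adjusted p 0.0015), with 77.1 and 64.6 CPM at 24 h against 45.9, 36.9 and 35.9 CPM at 0 h, and its 13 h value of 0.44 ± 0.17 did not pass (adjusted p 0.057). Map1lc3a, another LC3 gene, had the highest log2 change of the 40 from a very low level, at 0.365, 0.349 and 0.316 CPM at 0 h, 1.67 and 2.43 CPM at 13 h and 3.23 and 3.95 CPM at 24 h (3.39 ± 0.37 at 24 h and 2.58 ± 0.37 at 13 h). Gabarap did not pass (0.43 at 24 h, adjusted p 0.32), and its 0 h libraries ran from 20.8 to 55.3 CPM.

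Among the receptors, Nbr1, which carries ubiquitinated cargo, read 86.1, 84.8 and 77.6 CPM at 0 h, 215 and 199 CPM at 13 h, 310 and 350 CPM at 24 h and 99.5 and 95.9 CPM in G1E. This was a log2 change of 1.99 ± 0.11 at 24 h and 1.32 ± 0.11 at 13 h, and its 24 h adjusted p of 7.6e-07 by edgeR was the lowest among the 40. Tax1bp1 and Optn, both receptors that also act in mitophagy, rose by 2.09 ± 0.15 and 1.61 ± 0.17 at 24 h. Sqstm1, the founding ubiquitin receptor, read 75.2, 48.4 and 42.4 CPM at 0 h, 109 and 80.0 CPM at 13 h and 101 and 110 CPM at 24 h. Its log2 change was 0.93 ± 0.24 at 24 h and 0.77 ± 0.24 at 13 h (adjusted p 0.007 and 0.027), and the 13 h call was lost without 0 h library 2 or 3 or 13 h library 1 (0.55 to 0.68, adjusted p 0.078 to 0.183).

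The mitophagy genes separated by time. Pink1, the kinase that flags damaged mitochondria, was the 1 gene of the 5 that rose at 13 h, with 17.3, 8.07 and 6.63 CPM at 0 h, 63.8 and 34.6 CPM at 13 h, 48.8 and 54.7 CPM at 24 h and 11.5 and 12.9 CPM in G1E. The 13 h and 24 h libraries overlapped each other and all stood above those of 0 h, for 2.28 ± 0.38 at 24 h and 2.21 ± 0.38 at 13 h (edgeR adjusted p 0.0005 and 0.0013). Bnip3, a BH3-type receptor on the mitochondrial surface, read 8.54, 8.35 and 10.7 CPM at 0 h, 5.87 and 12.2 CPM at 13 h, 45.6 and 56.6 CPM at 24 h and 6.16 and 6.76 CPM in G1E. Its 13 h libraries lay on either side of those of 0 h (-0.02 ± 0.28, adjusted p 0.96), and both 24 h libraries were several-fold above them (2.48 ± 0.28, adjusted p 4.1e-05). Bnip3l, its paralog, followed the same order, with 77.0, 86.1 and 84.3 CPM at 0 h, 63.7 and 95.1 CPM at 13 h, 188 and 191 CPM at 24 h and 100 and 75.0 CPM in G1E. Bnip3l changed by 1.20 ± 0.18 at 24 h and by -0.05 at 13 h (adjusted p 0.00026 and 0.83). Park2 (Parkin), the ubiquitin ligase that Pink1 activates, read 98.1 and 91.7 CPM at 24 h against 72.1, 52.7 and 55.7 CPM at 0 h (0.66 ± 0.24, adjusted p 0.037). That call was lost without either 24 h library or without 0 h library 2 or 3 (0.57 to 0.71, adjusted p 0.0825 to 0.128). Fundc1, a receptor known from hypoxia, stayed between 10.3 and 14.01 CPM in all 9 libraries and passed in no comparison by TMM (-0.13 ± 0.19 at 24 h, adjusted p 0.59). Stx17, the SNARE that fuses the autophagosome with the lysosome, rose by 0.78 ± 0.14 at 24 h and 0.44 ± 0.14 at 13 h (adjusted p 0.00078 and 0.029).

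**Figure D2:**
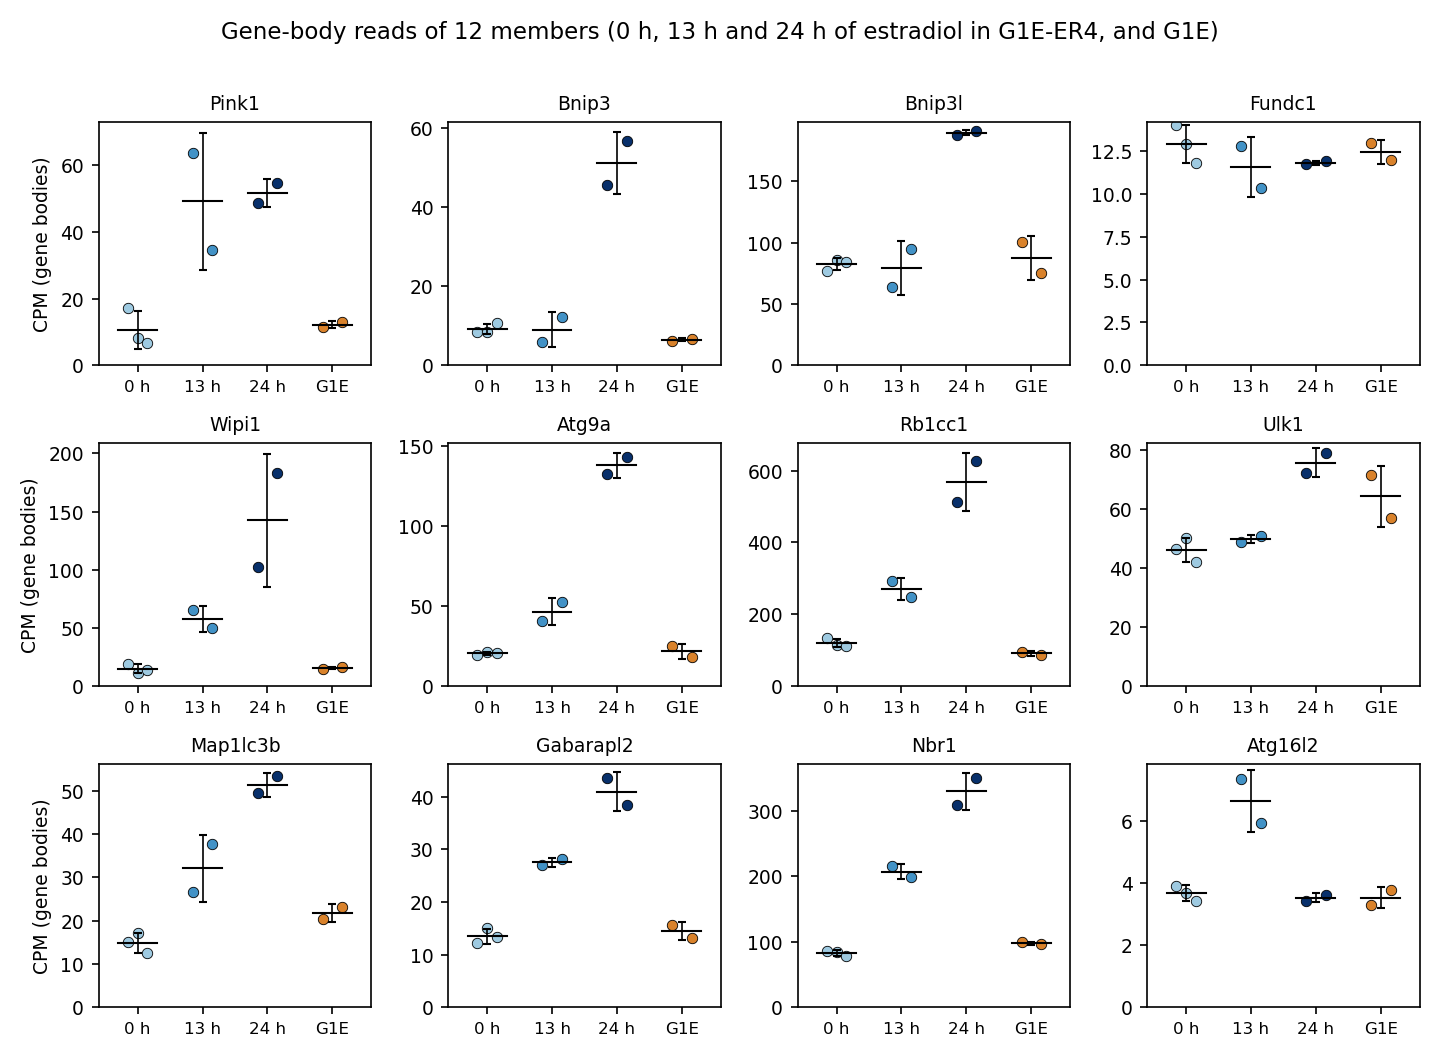
Gene-body level in CPM (linear axis from 0) of 12 members in each library, by group in the order 0 h, 13 h, 24 h and G1E; points are libraries, and bars mark the mean and SD (n = 3 at 0 h, n = 2 elsewhere). Bnip3 and Bnip3l are high in the 24 h libraries alone, Pink1 is high at 13 h and 24 h, and Fundc1 stays between 10.3 and 14.01 CPM.

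Setting 24 h directly against 13 h asks which members moved in the later interval. In this interval 17 members rose and 1, Atg16l2, fell, beside 11.7% and 12.5% of all tested genes, and DESeq2 called 18 higher and 1 lower. The median of the 40 was 0.38, where all genes had -0.05. Bnip3 had the largest step (2.50 ± 0.33, edgeR adjusted p 0.0018), then Atg9a (1.56 ± 0.19), Wipi1 (1.30 ± 0.30), Bnip3l (1.25 ± 0.20) and Rb1cc1 (1.07 ± 0.15). Atg16l2, a paralog of Atg16l1, read 3.92, 3.69 and 3.41 CPM at 0 h, 7.35 and 5.95 CPM at 13 h and 3.43 and 3.63 CPM at 24 h, so that its 13 h libraries were above all others (0.86 ± 0.24 at 13 h against 0 h and -0.91 ± 0.27 at 24 h against 13 h, adjusted p 0.017 and 0.036). Leaving out any 1 of the 4 libraries ended the later Atg16l2 call (-1.05 to -0.74, adjusted p 0.0682 to 0.165), and leaving out 0 h library 3 or 13 h library 1 ended the earlier one. The interval rests on 2 libraries against 2, and counts were 9 without 13 h library 1, 10 without 13 h library 2, 11 without 24 h library 1 and 9 without 24 h library 2. The increases that at least 1 omission ended were those of Atg12, Atg3, Atg4b, Gabarapl2, Map1lc3b, Optn, Ulk1, Ulk2, Uvrag and Wipi1. Total-count scaling left 6 higher and 1 lower, a fit of these 4 libraries alone left 8 higher and 0 lower, and blocks of adjoining title numbers, which 24 h and 13 h libraries never share, left 0 higher and 0 lower. Read over both intervals, 12 members rose in each step and over the whole time, 10 rose by 13 h with no further call, 4 were called in the second interval and not in the first (Bnip3, Bnip3l, Ulk1 and Atg3), and 5 passed only over the whole time. The 2 members Ulk2 and Atg16l2 passed in an interval but not at 24 h against 0 h, and 7 passed in none.

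The 0 h group against G1E asks what the fusion-bearing line does without ligand. In G1E-ER4 at 0 h 3 members were higher and 2 were lower, beside 7.88% and 9.58% of all genes, and DESeq2 called 3 and 4. Ulk2 was the one with the largest difference, at 76.2, 80.0 and 78.4 CPM in G1E-ER4 at 0 h against 39.1 and 31.6 CPM in G1E (log2 change 1.14 ± 0.14, edgeR adjusted p 0.00041), and no single omission ended that call. Atg10 was higher by 0.49 ± 0.11 and Stx17 by 0.48 ± 0.14 in G1E-ER4 at 0 h. Wipi2 and Ulk1 were lower, with log2 changes of -0.46 ± 0.11 and -0.48 ± 0.15. Each of these 4 was lost in at least 1 omission, Ulk1 without any library but G1E library 2 (-0.54 to -0.29, adjusted p 0.0732 to 0.355). The median of the 40 was 0.02, and of all genes 0.04. Map1lc3b, Sqstm1, Park2 and Bnip3l had values of -0.55, -0.59, -0.75 and -0.09 that did not pass.

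At the start sites, elements are peaks of paired transcription found by dREG, a classifier of run-on signal, counted either whole or by strand. The 64 member elements come from 43 peaks, 22 counted whole and 42 by single strand, and some lie between 2 genes and belong to both. At 24 h against 0 h 33 rose and 4 fell, where 30% of all 12973 tested start elements rose and 20.8% fell. At 13 h 20 rose and 4 fell, beside 16% and 13.4%. In the later interval 8 rose and 1 fell (7.85% and 5.1% of all). These 9 calls became 3 to 7 when 1 library was left out, with 4 without 13 h library 1 and 3 without 24 h library 2. They became 4 when elements were summed per gene, and 3 with gene-body scaling or with the title numbers as a block. In G1E-ER4 at 0 h against G1E 3 were higher and 0 lower (6.97% and 4.54% of all). At an unadjusted p under 0.05 that last pair was 9 and 2, and by DESeq2 4 and 0. The medians were 0.67 at 24 h and 0.47 at 13 h, against 0.14 and 0.04 over all start elements.

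Start signal moved with the gene body in several leaders. The Wipi1 start element (mm9 chr11:109471900-109475001) read 12.3, 7.36 and 9.92 CPM at 0 h, 51.4 and 58.3 CPM at 13 h, 84.8 and 105 CPM at 24 h and 9.5 and 6.09 CPM in G1E, for 3.26 ± 0.25 at 24 h (edgeR adjusted p 4.7e-07). The Pink1 start (mm9 chr4:137881050-137883401) read 20.9, 12.6 and 10.7 CPM at 0 h, 62.2 and 41.6 CPM at 13 h, 73.4 and 80.4 CPM at 24 h and 21.1 and 15.6 CPM in G1E, for 2.38 ± 0.28 at 24 h. In both, the estradiol libraries stood above all others. The sense strand at Bnip3 (mm9 chr7:146100000-146102501, minus strand) read 6.26, 9.44 and 8.39 CPM at 0 h, 7.97 and 14.9 CPM at 13 h, 36.9 and 32.5 CPM at 24 h and 5.74 and 4.84 CPM in G1E (2.11 ± 0.29 at 24 h, adjusted p 5.3e-05). The upstream antisense strand of that peak went the other way, at 8.69, 8.29 and 8.86 CPM at 0 h, 3.55 and 4.91 CPM at 13 h and 4.78 and 4.96 CPM at 24 h (-0.82 ± 0.31 at 24 h, adjusted p 0.037), a call that any 1 omission ended. The Map1lc3a strand of a peak shared with Pigu (mm9 chr2:155101650-155104751, plus strand) rose by 3.84 ± 0.31 at 24 h, while the Pigu strand did not pass (0.24). Ulk1 sense start signal was 38.4, 48.9 and 42.9 CPM at 0 h, 48.1 and 47.1 CPM at 13 h and 94.1 and 102 CPM at 24 h, the same order as its gene body (1.17 ± 0.18 at 24 h and 0.13 at 13 h).

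Bnip3l differed from these leaders, with start signal that did not rise with its body. It was not alone in this among the 40. At 24 h the summed start signal of Atg14 changed by 0.01 beside 1.13 for its body, and that of Wipi2 by 0.07 beside 0.85. The ratio test over all members is given below. Its sense start strand (mm9 chr14:67625550-67628651, minus strand) read 49.2, 65.8 and 68.3 CPM at 0 h, 35.0 and 46.2 CPM at 13 h, 45.1 and 46.5 CPM at 24 h and 30.1 and 25.3 CPM in G1E. The estradiol libraries all lay below those of 0 h, with -0.42 ± 0.21 at 24 h (adjusted p 0.11 by edgeR) and -0.59 ± 0.21 at 13 h (adjusted p 0.045, lost without any of 3 libraries at 0.101 to 0.322). Against G1E the 0 h group was higher by 1.14 ± 0.22 (adjusted p 0.0021), while the Bnip3l gene body was not. The 4 start elements lower at 24 h were the upstream strand of Bnip3, a strand shared by Gabarap and Phf23 (-0.81, lost without 0 h library 2 or 24 h library 2), a strand shared by Nbr1 and Tmem106a (-2.30), and the minus strand at Atg101 (-1.72). The Nbr1 gene body rose at 24 h, and those of Gabarap and Atg101 did not pass.

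The ratio of start signal to gene-body signal was tested in 1 fit over 10135 genes. Start sums and gene bodies were each scaled by TMM on their own. The test therefore asks whether both changed by the same factor relative to most genes in their own kind of count. At 24 h against 0 h it was lower for 13 members and higher for 0, where 18% of all genes were lower and 18.7% higher; the count of higher ratios was 0 at an unadjusted p under 0.05 too. The members' median was -0.16, and that of all genes 0.00. A gene's start signal here is the sum over both strands of every element listed for its start, so it can hold reads that are not the gene's own. Among the calls were Bnip3l (-1.57 ± 0.15, edgeR adjusted p 4.9e-05), Gabarapl2 (-1.32 ± 0.22), Map1lc3b (-1.26 ± 0.17) and Atg9a (-1.17 ± 0.17). The Atg9a sum adds 2 elements counted whole, with 2146, 1952 and 3269 reads and with 1748, 1861 and 2771 reads at 0 h. Sharing with Ankzf1 makes this sum mixed, and the part of Atg9a alone was not told apart. For Bnip3l the summed start signal was 60.7 and 59.8 CPM at 24 h against 59.8, 76.7 and 75.1 CPM at 0 h, while its body went up. For Gabarapl2 it was 36.9 and 33.7 CPM at 24 h against 29.4, 22.2 and 26.6 CPM at 0 h. The sums of Map1lc3a (-2.56 ± 0.29) and Bnip3 (-1.38 ± 0.25) do not describe these genes' own starts. The Map1lc3a sum is mostly the Pigu strand, with 692, 961 and 1235 reads at 0 h beside 60, 44 and 87 on the Map1lc3a strand, which rose by 3.84 at 24 h beside 3.39 for the gene body. The Bnip3 sum adds the upstream antisense strand, which fell, to the sense strand, which rose by 2.11 beside 2.48 for the gene body. The difference between own-strand and gene-body change was not tested for either gene. Atg13, Atg14, Uvrag, Ambra1, Wipi2, Atg4d and Nbr1 were also lower, with values of -1.12 to -0.58, and every one of these 7 but Nbr1 was lost in at least 1 omission. The Nbr1 sum is mixed too, since it adds a second peak that is shared with Tmem106a. The plus strand of that peak had 1131, 1208 and 1894 reads at 0 h, beside 2282, 1482 and 2043 on the other Nbr1 start element. Leaving out 24 h library 2 left 7 calls, and total-count scaling turned the balance to 6 lower and 6 higher, ending all 7 of these calls and adding higher ratios for Ulk1, Ulk2, Becn1, Atg4a, Atg7 and Atg16l2. The calls of Bnip3l, Gabarapl2 and Map1lc3b were made under both scalings, as were those of the mixed Map1lc3a, Bnip3 and Atg9a sums. The Gabarapl2 and Map1lc3b sums each rest on an element counted whole, so the gene's own strand was not told apart. The Bnip3l sum also adds the upstream strand to the sense strand given above. Gene-body counts may include reads near the start, and start elements may be shared, so each ratio describes the counted regions only.

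At 13 h against 0 h 3 ratios were lower and 0 higher (6.24% and 5.56% of all genes), those of Map1lc3b, Gabarapl2 and the mixed Map1lc3a sum (-2.20 ± 0.29, edgeR adjusted p 0.0011). The Map1lc3a strand alone had 371 and 388 reads at 13 h against 60, 44 and 87 at 0 h, a log2 change of 2.69 beside 2.58 for the gene body. Between 24 h and 13 h 3 were lower and 0 higher (2.28% and 3.65% of all), those of Bnip3l (-1.20 ± 0.16, adjusted p 0.0082) and of the mixed Atg9a (-0.73) and Bnip3 (-1.31) sums. The Bnip3 sense strand alone changed by 1.60 in that interval, beside 2.50 for the gene body. Omissions ended the 13 h calls of Map1lc3b (any of 5 libraries) and Gabarapl2 (any of 3), and every one of the later calls in at least 1 case, that of Bnip3l without 24 h library 2 (-1.15, adjusted p 0.119). In G1E-ER4 at 0 h against G1E 1 ratio was higher and 0 lower (0.809% and 0.849% of all), that of Bnip3l (0.83 ± 0.15, adjusted p 0.018), which 4 of the 5 omissions ended. In these 3 comparisons the direction with a count of 0 had 1, 1 and 3 members at an unadjusted p under 0.05 by edgeR.

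**Figure D3:**
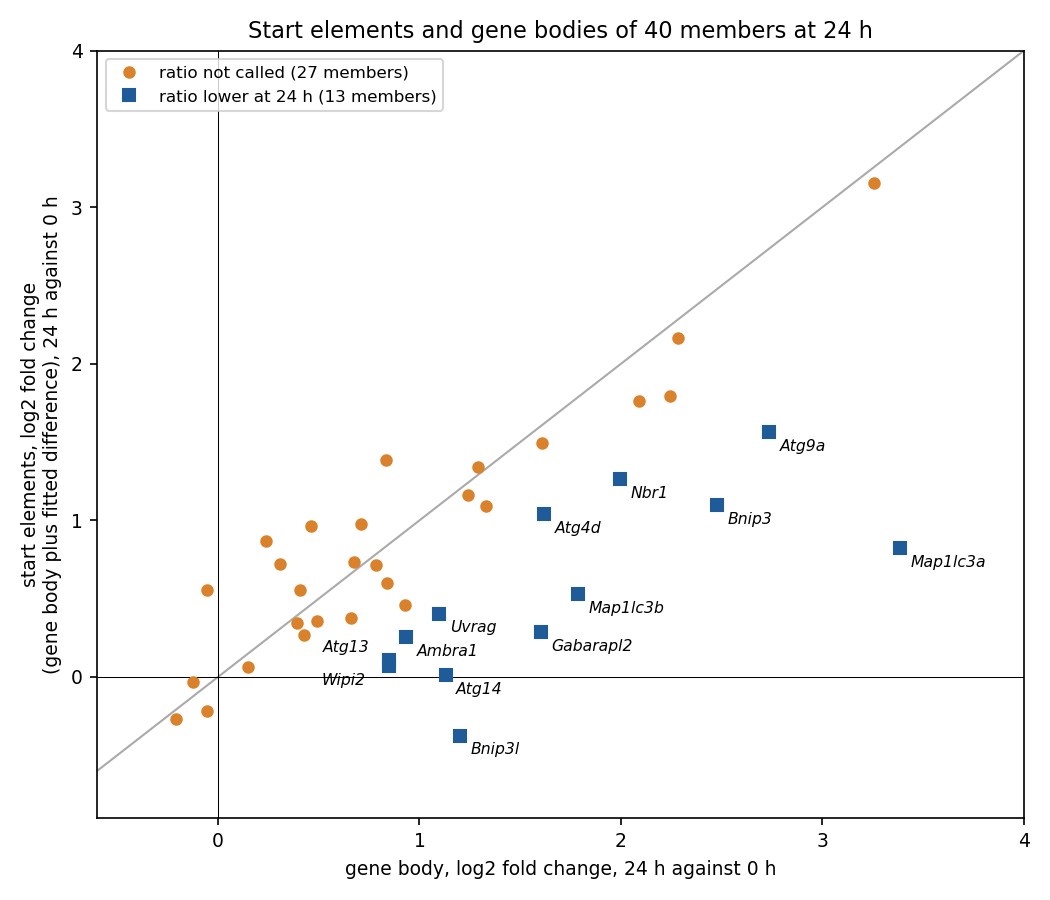
Log2 change of start-site signal (vertical, the gene-body change plus the fitted ratio) against log2 change of gene-body signal (horizontal) at 24 h against 0 h for the 40 members. The line marks equal change after scaling, and squares are the 13 members whose ratio was lower by the test. Bnip3l lies below the line, with a body change of 1.20 and a fitted ratio of -1.57. The squares of Map1lc3a and Bnip3 rest on sums that include the Pigu strand and the upstream antisense strand, and those of Atg9a and Nbr1 on sums with shared elements. Those of Gabarapl2 and Map1lc3b rest on elements counted whole.

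Inside the genes, 70 elements from 38 peaks fell within 15 members, and 53 had enough reads to test, 35 sense and 18 antisense. Sense elements contain read-through from the host gene. Of the sense elements 11 rose and 4 fell at 24 h (25.2% and 28.9% of all tested sense elements inside genes), and 4 rose and 4 fell at 13 h (14% and 21%). From this group 5 rose and 0 fell between 24 h and 13 h (7.59% and 7.14%), where the falls were also 0 at an unadjusted p under 0.05 and by DESeq2, and 2 were higher and 2 lower in G1E-ER4 at 0 h against G1E (6.87% and 12.6%). Of the antisense elements 5 rose and 7 fell at 24 h (17.3% and 32.2%), and 5 rose and 1 fell at 13 h (20.7% and 17%). Between 24 h and 13 h 0 rose and 3 fell (0.977% and 9.39%; 2 and 5 at an unadjusted p under 0.05, 1 and 4 by DESeq2), and 0 were higher and 2 lower in G1E-ER4 at 0 h against G1E (6.91% and 11.8%; 2 and 5 unadjusted, 1 and 3 by DESeq2).

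Within Wipi1 the strands of a single element diverged. At mm9 chr11:109447300-109450051, 63.4% along the gene, the antisense strand read 8.66, 5.34 and 7.71 CPM at 0 h, 4.16 and 4.05 CPM at 13 h, 1.71 and 1.80 CPM at 24 h and 8.96 and 6.82 CPM in G1E (-2.04 ± 0.34 at 24 h, edgeR adjusted p 0.00022). The sense strand read 5.61, 3.82 and 5.12 CPM at 0 h, 7.82 and 8.22 CPM at 13 h, 14.3 and 33.9 CPM at 24 h and 6.12 and 5.76 CPM in G1E (2.31 ± 0.33 at 24 h). The 24 h libraries were the lowest of the antisense strand and the highest of the sense strand. The element in Bnip3 (mm9 chr7:146098050-146099251, 13.6% along the gene) kept the late timing of its host, with 2.49, 2.83 and 3.06 CPM at 0 h, 3.0 and 3.62 CPM at 13 h and 16.0 and 21.5 CPM at 24 h (2.75 ± 0.30 at 24 h). In Bnip3l the antisense strand at mm9 chr14:67616200-67620151 (40.4% along the gene), the strand opposite to the host transcript, read 2.09, 2.11 and 2.06 CPM at 0 h, 2.19 and 3.76 CPM at 13 h, 6.81 and 7.04 CPM at 24 h and 5.4 and 3.05 CPM in G1E (1.73 ± 0.35 at 24 h, adjusted p 0.001).

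Other antisense elements were high at 13 h. In Uvrag (mm9 chr7:106133700-106136851, 60.7% along) the values were 0.561, 0.28 and 0.397 CPM at 0 h, 4.36 and 3.45 CPM at 13 h and 1.36 and 0.434 CPM at 24 h, a change of 3.23 ± 0.59 at 13 h (edgeR adjusted p 0.00092). In Atg7 (mm9 chr6:114608750-114611001, 7.70% along) they were 1.31, 0.435 and 0.246 CPM at 0 h, 5.51 and 4.17 CPM at 13 h and 0.828 and 1.61 CPM at 24 h (2.88 ± 0.63 at 13 h), although the Atg7 gene body passed at neither time. In Atg16l1 (mm9 chr1:89666750-89669801) there were 0, 6 and 6 reads at 0 h, 53 and 60 reads at 13 h and 26 and 81 reads at 24 h. Antisense strands in Atg10 (mm9 chr13:91323700-91324351) and Atg4b (mm9 chr1:95659450-95660501) also rose at 13 h and 24 h, against 3 and 6 reads in all at 0 h, calls that ended in Atg10 without 13 h library 1 and in Atg4b without either 13 h library or 24 h library 1. The 13 h libraries of the first 3 elements lay above every 0 h library, at low read numbers.

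Elements within Atg10 and Park2 fell. In Atg10 the element at mm9 chr13:91308500-91310301 (18.8% along) read 22.2, 17.0 and 16.4 CPM at 0 h, 3.67 and 4.55 CPM at 13 h, 2.51 and 4.06 CPM at 24 h and 22.3 and 20.5 CPM in G1E (-2.50 ± 0.31 at 24 h and -2.17 ± 0.30 at 13 h, edgeR adjusted p 2e-05 and 0.00012). The Atg10 gene body did not pass in either comparison (0.15 and -0.16). In Park2 the element at mm9 chr17:11980700-11982201 (77.5% along) read 3.64, 1.96 and 2.38 CPM at 0 h, 0.173 and 0.0719 CPM at 13 h, 0.107 and 0.248 CPM at 24 h and 0.157 and 0.0662 CPM in G1E. It was thus high in the 0 h group alone, with -3.90 ± 0.65 at 24 h and 4.35 ± 0.69 in G1E-ER4 at 0 h against G1E (adjusted p 0.00022 and 0.00055), whereas the Park2 gene body was not lower at 24 h. Another Park2 element, at mm9 chr17:12037450-12039601, had -3.19 at 24 h and 1.97 in G1E-ER4 at 0 h against G1E, the second of which 4 of the 5 omissions ended (adjusted p 0.0544 to 0.174 by edgeR). The antisense strand of a Park2 element at mm9 chr17:11066300-11068301 read 0.0267 and 0.0930 CPM at 24 h, 0.749, 0.839 and 0.586 CPM at 0 h and 4.21 and 2.65 CPM in G1E (-3.56 at 24 h, and -2.26 in G1E-ER4 at 0 h against G1E, lost without G1E library 1 at -1.87). In Optn the antisense strand at mm9 chr2:4961500-4965251 read 3.69, 1.77 and 2.63 CPM at 0 h, 2.19 and 1.65 CPM at 13 h and 0.454 and 0.310 CPM at 24 h (-2.80 at 24 h), while the Optn gene body rose. A Uvrag element at mm9 chr7:106250000-106251451 had 1 read in the 3 libraries of 0 h against 0.493 and 0.596 CPM in G1E.

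**Figure D4:**
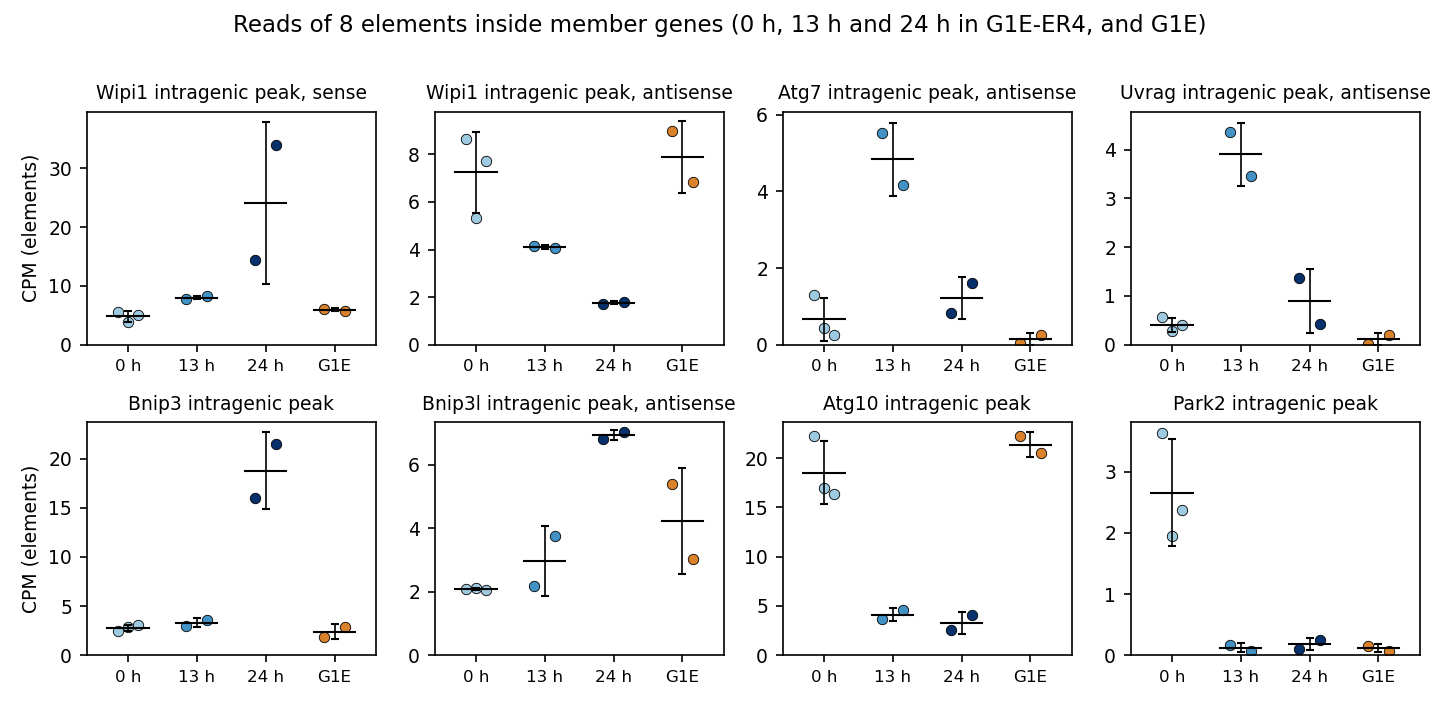
Level in CPM (linear axis from 0) of 8 elements inside member genes in each library, by group in the order 0 h, 13 h, 24 h and G1E; points are libraries, and bars mark the mean and SD. The Wipi1 antisense strand is at 1.71 and 1.80 CPM at 24 h while the sense strand reaches 14.3 and 33.9 CPM, and the Atg10 element is high without estradiol only.

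The authors' deposited table also gives clusters of genes, by a method not given in the sources used here, and they are given only as labels. In the authors' deposited table, cluster 15 covers 14 of the 40 members (35%) and 5.65% of all genes, among them Wipi1, Pink1, Map1lc3a, Nbr1, Rb1cc1 and Tax1bp1. Cluster 16 of the authors' deposited table holds 6 members (15%, against 3.38% of all genes): Ambra1, Atg3, Atg5, Atg9a, Bnip3 and Bnip3l. Cluster 10 of the authors' deposited table holds Atg13, Atg16l2, Atg2a and Atg4d (10%, against 2.51%). No cluster is given for 9 members (22.5%) in the authors' deposited table, against 60.2% of all genes. Here all genes means all 24391 rows, of which 13825 had enough reads to test, while all 40 members did. The shares are therefore not set against genes of like expression.

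A wider list of 78 tested autophagy genes outside the 40 gave 42 higher and 10 lower at 24 h, 34 and 8 at 13 h, 26 and 6 between 24 h and 13 h, and 2 and 9 in G1E-ER4 at 0 h against G1E. Over all genes tested the shares higher and lower were 29% and 30.7% at 24 h, 20.1% and 20.9% at 13 h, 11.7% and 12.5% between 24 h and 13 h, and 7.88% and 9.58% against G1E. The medians of the 78 were 0.56, 0.30, 0.33 and 0.01. This list was also chosen with earlier results of these data known. At 24 h genes for fusion with the lysosome counted 11 higher and 1 lower of 16, genes of mitochondrial ubiquitin and dynamics 9 and 3 of 19, receptors 6 and 2 of 12, upstream kinases 7 and 2 of 17, lipid kinase partners and lipid binders 5 and 0 of 8, and conjugation and membrane source genes 4 and 2 of 6. Calcoco1, a receptor for the endoplasmic reticulum, read 9.94, 5.31 and 4.76 CPM at 0 h, 62.9 and 47.9 CPM at 13 h and 87.9 and 98.6 CPM at 24 h (log2 change 3.81 at 24 h). Tbc1d15, a GTPase regulator that acts in mitophagy, changed by 2.80, and Ccpg1, another receptor for the endoplasmic reticulum, by 2.57. Ncoa4, the ferritin receptor, had the largest step of the list between 24 h and 13 h (1.42), with 33.9, 60.4 and 50.6 CPM at 0 h, 75.8 and 135 CPM at 13 h and 284 and 281 CPM at 24 h. Stk11, a kinase that activates AMPK, and Vps26a, a retromer subunit, followed in that interval (1.31 and 1.23). Vps26a was counted above among the 8 lipid kinase partners and lipid binders, a name that does not describe it. Prkag2, an AMPK subunit, was among the 3 largest at 13 h (2.20). Foxo3, the forkhead factor, rose by 1.51 at 24 h and 0.92 at 13 h, with 1171 and 1048 CPM at 24 h against 374, 418 and 375 CPM at 0 h. On the other side, Phb2, a mitochondrial inner-membrane receptor, read 55.9, 46.9 and 55.3 CPM at 0 h, 18.2 and 24.3 CPM at 13 h and 11.8 and 9.69 CPM at 24 h (-2.30), Tmem173 (STING) changed by -3.44 and Tgm2, a transglutaminase, by -5.37. Fam134b, a receptor for the endoplasmic reticulum, held 6 reads over the 3 libraries of G1E-ER4 at 0 h against 3541 reads over the 2 of G1E. Mtor, the kinase that holds autophagy back, did not pass (0.04 at 24 h and -0.06 at 13 h).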

How the data were processed

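The labels describe PRO-seq of G1E and G1E-ER4 cells. The authors deposited raw read counts per gene body and per dREG element, and per the file headers an element's position along its gene is a percent. Alignment used BWA to mm9, per the submitters' processing notes, with the version, the counter, the gene models and the use of strand in gene-body counting not given in the sources used here. Reads from overlapping genes may therefore be mixed.

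Counts were scaled with TMM and fitted with edgeR 4.0.16 (R 4.3.3) by quasi-likelihood over all 9 libraries with group as the only term, after filterByExpr, with a call at a Benjamini-Hochberg adjusted p below 0.05 over all tested rows. Levels are TMM-scaled CPM and are not divided by gene length, so genes are not compared with each other. Errors of log2 changes are standard errors, derived from the F statistic. The start-to-body ratio was an interaction term over both kinds of count, each scaled by TMM on its own. Scripts were tested on simulated data. DESeq2 1.42.0, total-count scaling, no filter, blocks, the compared groups alone and leaving out each library were alternatives. Python 3.11.15, pandas 2.3.3 and matplotlib 3.10.9 handled tables and plots.

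The members and lists were chosen with earlier results of these data known. In each comparison the rule named the 5 largest increases and 5 largest decreases called with groups that do not overlap, always Bnip3l, Bnip3, Pink1, Park2, Fundc1, Ulk1, Map1lc3b, Gabarapl1, Gabarapl2, Sqstm1 and Wipi1, and, for elements inside genes and for the wider list, 3 each way with Foxo3 and Mtor. Other members and elements were named after their values were seen.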

Additional observations from a re-analysis of the deposited data

How the results depend on the processing

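Total-count scaling left 2 members lower at 24 h, 2 lower at 13 h, 6 higher between 24 h and 13 h and 1 lower in G1E-ER4 at 0 h against G1E, and 1 lower start-to-body ratio both at 13 h and between 24 h and 13 h. DESeq2 called 1 lower at 13 h and 4 lower in G1E-ER4 at 0 h against G1E. Without the filter on low counts, 0 were lower between 24 h and 13 h and 0 in G1E-ER4 at 0 h against G1E. Fitting the compared groups alone gave 8 higher and 0 lower between 24 h and 13 h, and 1 lower against G1E. Start elements called fell to 12 at 13 h and 4 between 24 h and 13 h when summed per gene, and to 3 in the later interval with gene-body scaling. With title numbers as a block, between 24 h and 13 h 0 were higher and 0 lower, with 3 start elements and 1 ratio, and against G1E 1 was higher, 1 lower and 0 ratios.

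Same-numbered libraries deviated together at 13 h and 0 h (r = 0.566 and 0.547) but not at 24 h and 0 h (0.043 and -0.049), 24 h and 13 h (-0.238 and -0.238) or 0 h and G1E (-0.209 and -0.159). In a group of 2 libraries the deviations mirror each other, so the 2 values of a comparison are not separate evidence. With 2 pairs per comparison and no label on it, whether the numbers pair the samples is not settled. With the replicate block, 29 rose at 24 h, 16 rose at 13 h, 12 rose and 0 fell between 24 h and 13 h, and 1 was higher and 0 lower in G1E-ER4 at 0 h against G1E, with 5 start elements and 0 ratios there and 1 ratio at 13 h. The 13 h calls of Atg13, Ambra1, Atg4a, Atg12, Atg16l2, Sqstm1 and Stx17 ended with this block, and those of Ambra1 and Atg16l2 also with title numbers as a block, where 21 rose. Crossed numbers, added after seeing the data, gave 14 higher and 0 lower between 24 h and 13 h.

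Leaving out 1 library gave 28 to 30 higher members at 24 h, 16 to 24 at 13 h, 9 to 11 between 24 h and 13 h (with 0 to 0 lower) and 1 to 3 higher and 0 to 3 lower against G1E; 32 to 38, 17 to 24, 3 to 7 and 1 to 3 start elements; and 7 to 14, 1 to 3, 0 to 2 and 0 to 1 ratios. The sense strand of a Park2 element (0 h values of 2.22, 2.24 and 13.0 CPM, so that 0 h library 3 alone was high) had 0.05 in G1E-ER4 at 0 h against G1E, but -1.36 (edgeR adjusted p 0.0419) with the replicate block, and -1.33 (adjusted p 0.0481, without 0 h library 3) to 0.61 in omissions. Of single gene-body values under all alternatives, 1576 kept their status, which includes values not called in either fit. Another 164 were called in the main fit and lost the call, and 20 gained one. Element values near 1 CPM rest on few reads. The cause of these shifts was not tested.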
